A study of Mus musculus with 2 samples.

Results

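The proximal signalling machinery of the T cell receptor (TCR) was examined in a genome-wide map of Lef1 binding in mouse CD4+ T cells. It was taken here as 9 genes: the receptor chains Cd247 and Cd3e, the costimulatory receptor Cd28, the kinases Lck, Zap70 and Prkcq, and the adaptors Lat, Lcp2 and Trat1. A peak was counted for a gene when any of its bases lay inside the gene body or within 50 kb of it (mm10). By this rule 10 of the 2052 listed peaks belonged to the 9 genes, and 7 of the 9 genes had at least 1 peak.

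Binding was mapped by chromatin immunoprecipitation and sequencing (ChIP-seq) with the anti-Lef1 antibody C18A7. The first library came from conventional CD4+ T cells, sorted as TCRb+, CD4+ and CD25- from wild-type C57BL/6 spleens at an age of 8 to 10 weeks. The other came from TCRb+, CD4+ T cells of CD4-Cre+ Lef1 fl/fl mice on the C57BL/6 background, in which Cre is driven by Cd4 regulatory sequences and deletes the floxed Lef1 gene in T cells that pass through a CD4-expressing stage. Both libraries carry the tissue label naive CD4 T cells, but the Lef1-deficient cells are not described as CD25-negative, so the gates may have differed. The wild-type library was set against the Lef1-deficient one in the peak calls, with 1 library of each, so that no difference between the cells could be tested.

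Lef1 is a transcription factor of the TCF/LEF family, which binds DNA through a high-mobility-group box and is needed for T cell development in the thymus. When a T cell meets its antigen, Lck phosphorylates the signalling motifs of the CD3 and zeta chains, Zap70 docks on these motifs, and Zap70 in turn phosphorylates the adaptors Lat and Lcp2. Signals from this assembly and from Cd28 reach Prkcq, the protein kinase C isoform that leads to NF-κB.

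The sequences at the starts of these genes were read first, because Lef1 has a known preferred core. Windows from 250 bases before to 50 bases after a RefSeq start (GRCm38.p6, the assembly of mm10) were given for 8 of the 9 genes, 11 windows in all, and Cd28 was not matched. The core CTTTGA was searched on both strands, where the reverse strand reads TCAAAG. It was found in 4 of the 11 windows, at Cd247, Zap70, Trat1 and Lcp2, and in 16.0% of 32851 windows of the same length. These 4 windows are shown because they hold the core, which is in capitals; each is written 5′ to 3′ on the strand of its gene.
Cd247, chr1:165788431-165788730, plus strand: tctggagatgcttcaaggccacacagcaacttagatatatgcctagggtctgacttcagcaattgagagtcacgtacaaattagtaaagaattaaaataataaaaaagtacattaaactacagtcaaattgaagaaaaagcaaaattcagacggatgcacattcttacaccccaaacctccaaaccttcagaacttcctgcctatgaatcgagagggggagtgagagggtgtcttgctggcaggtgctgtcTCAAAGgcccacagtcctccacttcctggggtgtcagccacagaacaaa
Zap70, chr1:36761548-36761847, plus strand: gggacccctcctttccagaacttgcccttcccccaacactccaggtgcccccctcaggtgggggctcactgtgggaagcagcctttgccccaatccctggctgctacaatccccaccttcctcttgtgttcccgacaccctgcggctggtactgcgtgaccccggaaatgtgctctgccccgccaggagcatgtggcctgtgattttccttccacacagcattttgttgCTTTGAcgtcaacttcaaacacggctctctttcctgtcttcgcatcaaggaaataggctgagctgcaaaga
Trat1, chr16:48772013-48772312, minus strand: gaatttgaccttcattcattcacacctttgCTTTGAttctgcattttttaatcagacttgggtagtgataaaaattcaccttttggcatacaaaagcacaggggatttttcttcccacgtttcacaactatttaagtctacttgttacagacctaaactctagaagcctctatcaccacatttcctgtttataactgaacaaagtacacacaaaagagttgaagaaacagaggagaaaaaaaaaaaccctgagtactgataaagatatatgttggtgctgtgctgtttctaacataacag
Lcp2, chr11:34046678-34046977, plus strand: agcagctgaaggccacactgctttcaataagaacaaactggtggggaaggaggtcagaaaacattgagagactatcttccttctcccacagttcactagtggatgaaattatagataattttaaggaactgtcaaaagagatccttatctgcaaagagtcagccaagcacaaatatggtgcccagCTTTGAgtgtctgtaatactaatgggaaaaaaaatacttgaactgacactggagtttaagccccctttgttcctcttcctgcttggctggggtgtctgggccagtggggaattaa
The core began 21 bases before the start at Zap70, 65 bases before it at Lcp2 and 220 bases before it at Trat1, while at Cd247 it began at the second transcribed base on the reverse strand. The longer forms CTTTGAT or CTTTGAA, which contain the core, were in 1 of the 11 windows, that of Trat1, and in 8.65% of all windows. A match describes letters and is not a measured site: none of the 11 windows held a listed peak.

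Listed peaks were found at 7 of the 9 genes (77.8%), where 15.5% of all 21887 protein-coding genes had one by the same rule. The 9 genes were chosen with earlier results of these data known, so the shares and densities here are descriptions and no test of enrichment. Inside the gene body, 4 of the 9 had a peak (44.4%), against 4.51% of all genes. Within 10 kb, 6 of the 9 had one, against 7.33% of all genes. When a peak was given only to the coding gene nearest to it, 5 of the 9 had one, against 6.76% of all genes. The gene bodies of the 9 were longer than usual, with a median of 27.0 kb against 17.2 kb for all protein-coding genes, and the part of length in these counts was not tested. Per length of DNA, the 9 genes with 50 kb on either side held 7.49 peaks per Mb, against 0.989 per Mb over the same territory of all protein-coding genes. The 36 other genes of the pathway, described below, held 3.74 per Mb, with a median body of 52.6 kb. For the 9 genes, no peak lay near the limit of the rule. The furthest counted was 31.6 kb from its gene (Cd247), and the closest one not counted was 135.6 kb away (Cd28).

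**Figure D1:**
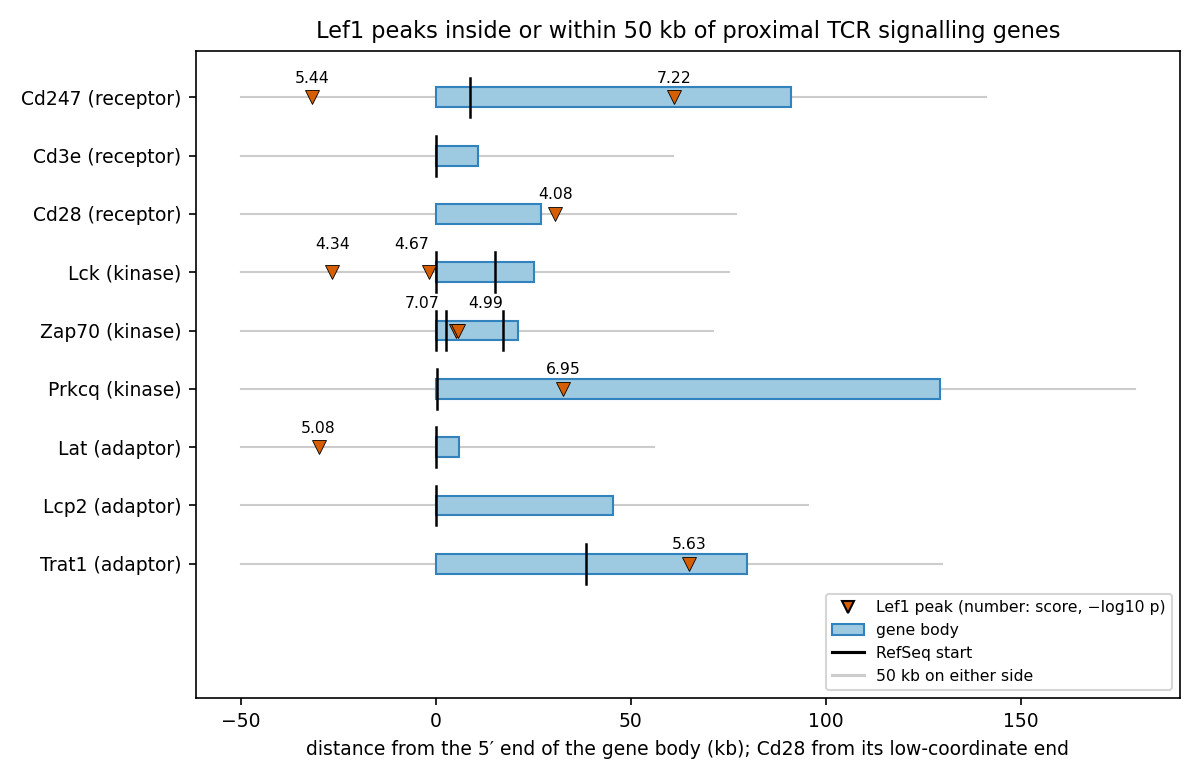
Map of the 9 genes, each drawn from the 5′ end of its gene body in kb (Cd28 from its low-coordinate end), with gene bodies as bars, RefSeq starts as black lines and Lef1 peaks as triangles with their score (−log10 p). Peaks lie inside Cd247, Zap70, Prkcq and Trat1, outside the body at Lck, Lat and Cd28, and there is none at Cd3e or Lcp2.

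Each peak has a deposited score (−log10 p), which grows as reads of the wild-type library exceed those of the Lef1-deficient library there. Scores of the whole list ran from 4.01 to 38.17 with a median of 4.40, and 828 peaks (40.4%) shared that median value. Of the 10 peaks at the TCR genes, 8 scored above the median, as did 30.6% of all listed peaks. Above the upper quartile (4.99) were 6 of the 10, and 22.5% of the list. The 10 scores ran from 4.08 to 7.22 with a median of 5.26, so that most lay above the median of the list but well below its top. None of the 10 had the commonest score.

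**Figure D2:**
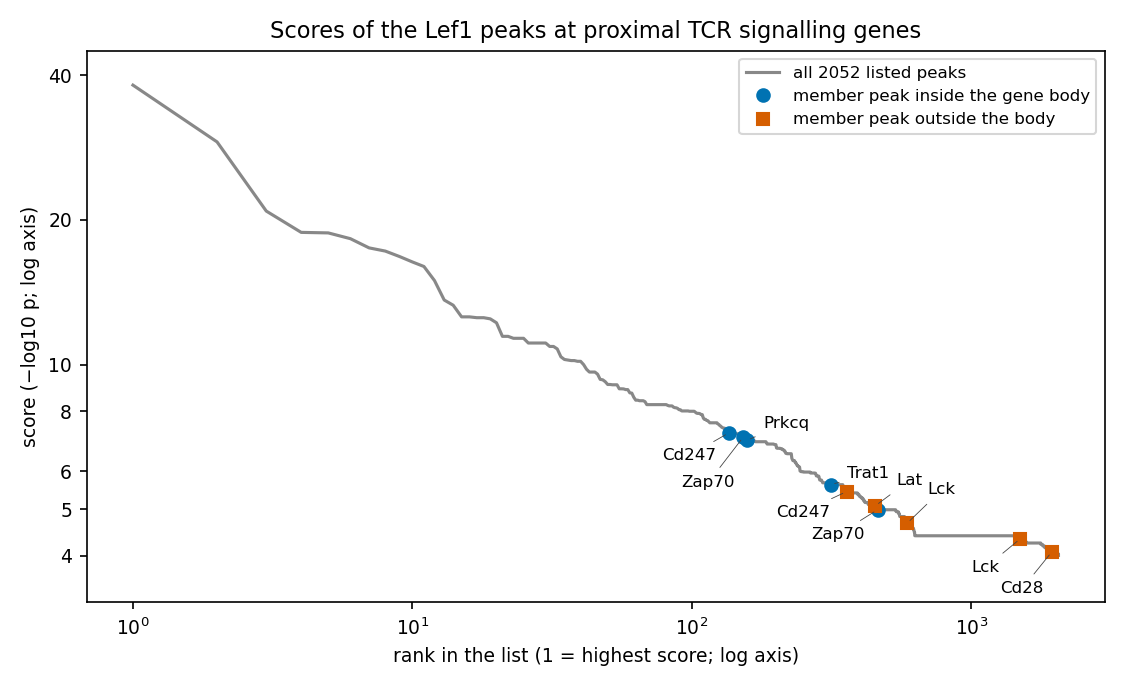
Score (−log10 p, log axis) against rank (log axis) for all 2052 listed peaks as a grey line, with the 10 peaks at the TCR genes marked inside (circles) or outside (squares) the gene body. The highest of them, inside Cd247, ranks 136, and the lowest, at Cd28, ranks 1944.

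Among the receptor genes, Cd247 and Cd28 had peaks and Cd3e had none. Cd247 encodes the zeta chain, which carries most of the signalling motifs of the receptor, and its gene body spans 91.2 kb (chr1:165779952-165871153). A peak of 95 bp with a score of 7.22 lay inside it at chr1:165840943-165841037, 52.3 kb downstream of the RefSeq start and 66.9% of the way along the body. It ranked 136 in the list and had the highest score of the 10. The RefSeq start of Cd247, at 165788681, lay inside the gene body and not at its 5′ end. A second peak, 67 bp wide with a score of 5.44 (rank 358), lay 31.6 kb upstream of the body at chr1:165748254-165748320. That site was closer to the gene body of Creg1, at 15.4 kb, so that by nearest gene it would not be counted for Cd247.

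Cd28 encodes the main costimulatory receptor of naive T cells. Its peak, at chr1:60777015-60777208, lay 3.66 kb above the high-coordinate end of the gene (chr1:60746388-60773359), and Cd28 was the only protein-coding gene within 50 kb of it. At 194 bp it was the widest of the 10, yet its score of 4.08 was the lowest, at rank 1944, and 76 listed peaks had that same score. A RefSeq start of 2310016D23Rik lay 1253 bp from the peak.

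Cd3e encodes the epsilon chain of CD3. It lies beside Cd3d and Cd3g, for the delta and gamma chains, and no listed peak lay within 100 kb of any of them. The listed peak closest to Cd3e was 198.2 kb from its body (chr9:45207818-45207904, score 4.40). Of the 4 genes for invariant chains of the receptor, Cd247 alone therefore had a peak.

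All 3 kinase genes had peaks, 5 in number. Zap70, the kinase that docks on the phosphorylated zeta chain, had a pair of peaks inside its body (chr1:36761798-36782821). They lay at chr1:36767026-36767109 with a score of 7.07 (rank 153) and at chr1:36767438-36767521 with a score of 4.99 (rank 462), each 84 bp wide. They were 328 bases apart and may belong to the same bound stretch. The RefSeq starts of Zap70 are at 36761798, 36764515 and 36778984, and the higher peak lay 2511 bp downstream of the second of these.

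Prkcq, which encodes protein kinase C theta, had a peak of 168 bp with a score of 6.95 (rank 157) inside its body (chr2:11171905-11301226). The peak, at chr2:11204443-11204610, was 32.1 kb downstream of the RefSeq start and 25.2% of the way along the gene. No other protein-coding gene lay within 50 kb of it, and the next listed peak was 1522 kb away.

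Lck encodes the Src-family kinase that starts the cascade, and it is known to be transcribed from a distal and a proximal promoter. No peak lay inside its body (chr4:129548344-129573641). The closer of its peaks, of 67 bp and score 4.67 (rank 589), was at chr4:129575379-129575445, 1.74 kb upstream of the RefSeq start at 129573641. The body of Fam167b was 1.37 kb from this peak on its other side, so by body distance Fam167b was nearer, while the nearest RefSeq start was that of Lck. The other peak, of 69 bp and score 4.34 (rank 1499), was 26.4 kb upstream at chr4:129600087-129600155. It lay inside Eif3i, a translation initiation factor gene, 525 bp from a start of Tmem234. In all, 7 protein-coding genes were nearer to it than Lck: these 2, Dcdc2b, Iqcc, Ccdc28b, Fam167b and Txlna.

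Of the adaptor genes, Trat1 and Lat had a peak each and Lcp2 had none. Trat1 encodes a transmembrane adaptor that associates with the TCR complex. Its peak of 153 bp and score 5.63 (rank 314) lay inside the body (chr16:48730774-48810547) at chr16:48745572-48745724, 26.3 kb downstream of the RefSeq start. No other protein-coding gene was within 50 kb of it, and the next listed peak was 1335 kb away. The window at the RefSeq start of this gene, printed above, holds the longer form of the core, but the peak was not there. That start, at 48772062, lay inside the gene body and not at its 5′ end. Counted from the 5′ end, the peak was 81.4% of the way along the body.

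Lat encodes the membrane adaptor on which phospholipase C gamma and other effectors assemble, and its body is short, at 5.88 kb (chr7:126363827-126369705). The peak counted for it, 110 bp wide with a score of 5.08 (rank 453), was 30.1 kb upstream of its start at chr7:126399652-126399761. It lay 2.86 kb from the body of Nfatc2ip, and Spns1 and Rabep2 were also nearer to it than Lat. Which gene the site belongs to, if any, was not tested.

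Lcp2 encodes the cytosolic adaptor that joins Lat in the signalling assembly. Its body (chr11:34046928-34092281) had no listed peak within 100 kb, and the closest was 608.9 kb away (chr11:33437935-33437994, score 4.40). Its start window nevertheless held the CTTTGA core.

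A gene without a listed peak is one with none in the deposited list. The names of the peaks carry numbers from 26 to 33876 that follow position along every chromosome. The listed peaks make up 6.06% of these numbers. The gaps may count calls that were left out, but how the numbers were given is not stated. Between the listed peaks on either side of Lcp2, a stretch of 1888 kb, 26 numbers were missing. Around Cd3e, 16 were missing over 846 kb. Whether these stand for calls is unknown, as are any places within these stretches and any scores. Between the paired peaks of Zap70 no number was missing, between those of Cd247 1 was, and between those of Lck 3 were.

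Peaks inside and beside the TCR genes covered overlapping ranges of score. The 5 inside peaks scored 4.99 to 7.22 and the 5 outside scored 4.08 to 5.44, and the overlap came from the lower peak of Zap70 and the upstream peaks of Cd247 and Lat. Over the whole list, inside any protein-coding gene body 22.8% of peaks exceeded the upper quartile, against 22.1% of the rest, and both medians were 4.40. With 5 peaks a side, from 4 genes each, this is a description.

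Distances to the nearest RefSeq start of any gene were also taken. None of the 10 overlapped a RefSeq start window, where 13.1% of the 1977 listed peaks on chromosomes with windows did, and 1 of the 10, the one inside Eif3i, was within 1 kb of a start, against 21.6%. The median distance to a start went the other way, at 2.92 kb for the 10 peaks and 16.4 kb for the listed ones, so the 10 were neither closer nor further by every measure. Not every gene has a window, so these shares are lower bounds and the distances upper bounds.

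The other genes of the pathway were taken as a list of 36. Of these, 16 (44.4%) had a peak within 50 kb, against 15.5% of all protein-coding genes. Inside the body, 9 of the 36 had one (25%), against 4.51% of all genes. The symbol Pdk1 of that list names in mouse the mitochondrial pyruvate dehydrogenase kinase and not the kinase PDK1 of this pathway. Without Pdk1, 15 of 35 had a peak within 50 kb, and with Pdpk1 in its place the number was again 15. Vav1, a guanine nucleotide exchange factor that joins Lcp2, had the highest score of this list, with a peak of 8.06 and 315 bp that lay 3.33 kb upstream of its start (chr17:57275456-57275770) and another of 4.28, 29.8 kb upstream, at the start of Trip10.

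Most of the remaining pathway genes had peaks of low score. Fyb, an adaptor that links the TCR to integrins, had 4, of which 3 were inside its body, but none above 4.40. Grb2, the adaptor that recruits Sos1 to Lat, had one of 5.41 inside its body, 282 bp from a start, and Sos1 had one of 4.25, inside Arhgef33. Plcg1, which encodes phospholipase C gamma 1, had one of 4.99, 29.4 kb upstream and inside Top1. Shb had a pair with a highest score of 4.40, and Rasgrp1 and Tespa1 had 1 each of 4.40. Grap2, the adaptor that carries Lcp2 to Lat, and Unc119, an activator of Lck, had 1 each of 4.11, and Rhoh, a small GTPase that aids Zap70, had one of 4.14. Pdk1 had 3 peaks, the highest of 4.99, between 37.6 and 38.0 kb from its body and at most 60 bp apart.

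A single peak of score 4.20 served Txk and Tec, neighbouring genes for Tec-family kinases. It is shown because it lay wholly inside a start window, that of Txk, so that its own sequence could be read, as could that of the Unc119 peak; the core is in capitals where present, and each is written 5′ to 3′ on the strand of its gene.
Txk peak, chr5:72752783-72753016, minus strand: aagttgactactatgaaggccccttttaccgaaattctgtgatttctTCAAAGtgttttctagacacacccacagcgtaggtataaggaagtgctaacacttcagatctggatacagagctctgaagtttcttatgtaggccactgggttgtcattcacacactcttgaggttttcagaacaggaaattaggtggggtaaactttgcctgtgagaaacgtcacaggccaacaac
Unc119 peak, chr11:78343461-78343537, plus strand: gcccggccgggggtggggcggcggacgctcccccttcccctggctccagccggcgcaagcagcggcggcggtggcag
The 234 bp of the Txk peak held the core once, as TCAAAG, and the 77 bp of the Unc119 peak did not hold it. The other 20 listed pathway genes, among them Cd4, Fyn, Cd3d, Cd3g, Skap1, Bcl10 and Malt1, had no listed peak within 50 kb.

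**Figure D3:**
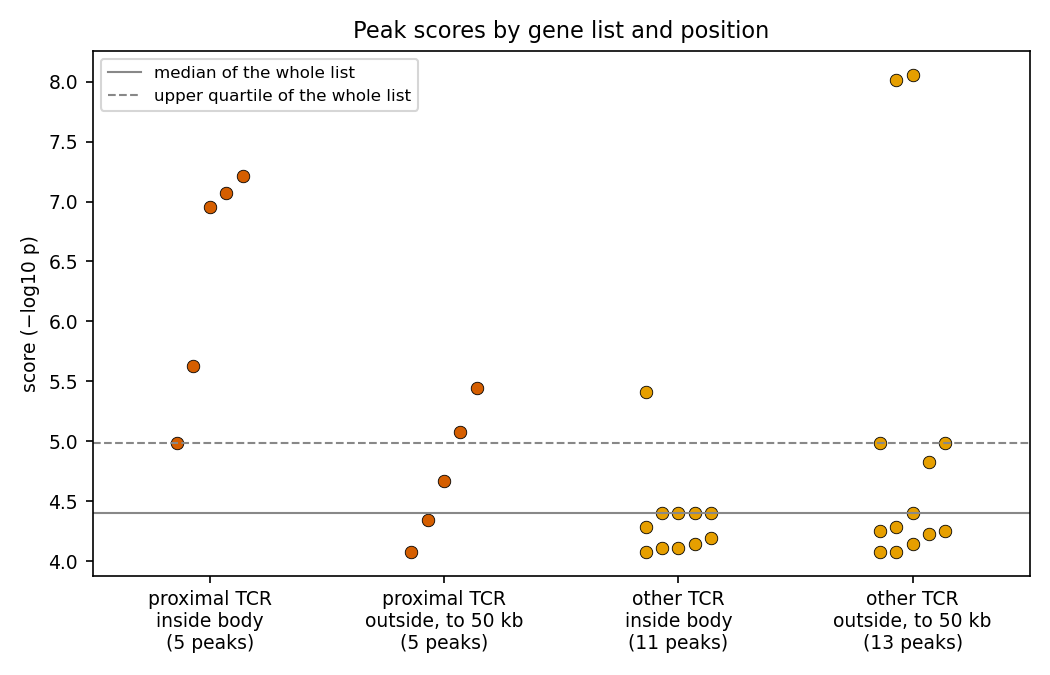
Score (−log10 p) of each peak at the 9 proximal TCR genes and at the 36 other pathway genes, split by position inside or outside the gene body, with each peak drawn once. Grey lines give the median and the upper quartile of the whole list; of the peaks of the other pathway genes, 1 of 11 inside and 2 of 13 outside lie above the upper quartile.

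Scores set the 9 genes beside the wider pathway. Of their 10 peaks 6 exceeded the upper quartile of the list (60%), against 3 of the 24 peaks at the other pathway genes (12.5%), and median scores were 5.26 and 4.28. With peaks above the median score alone, 6 of the 9 genes had one and 5 of the 36 others, where 5.84% of all protein-coding genes did. The members were named with these scores known, so this contrast is given without a test.

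Genes that do the like work at the B cell receptor had 1 of 20 with a peak within 50 kb (5%), where 15.5% of all protein-coding genes had one, and none inside the body. Within 100 kb the B cell list had 5 of 20 (25%), near the 24.6% of all genes, while the 9 TCR genes stayed at 7.

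**Figure D4:**
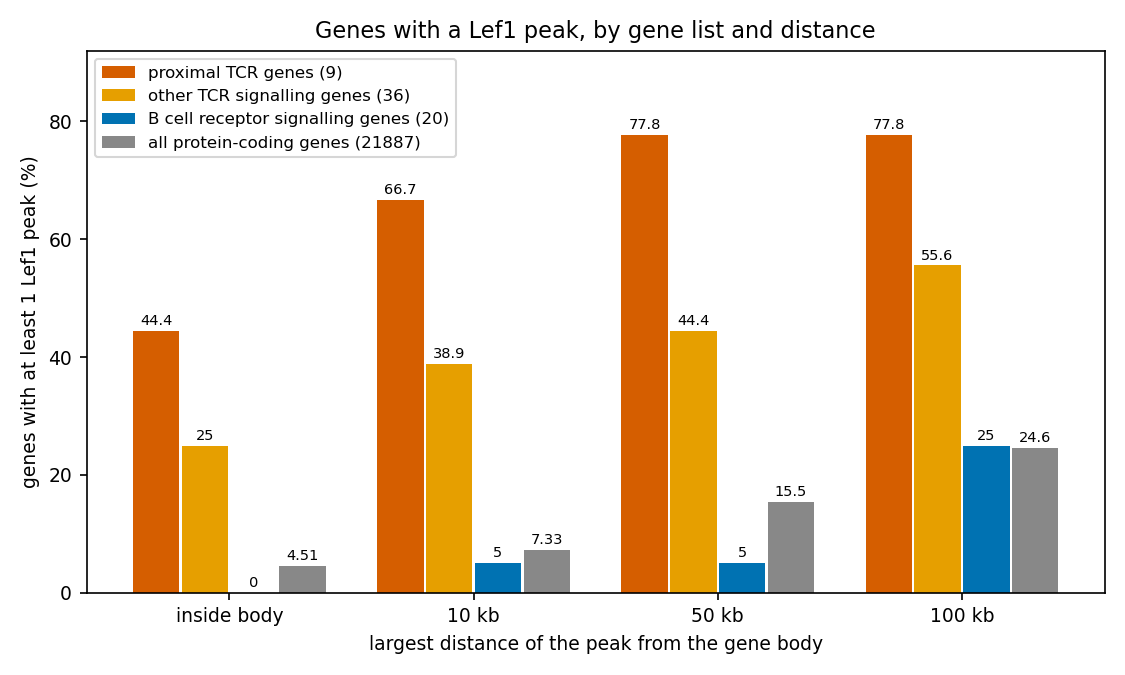
Percentage of genes with at least 1 Lef1 peak inside the gene body or within 10, 50 or 100 kb of it, for the 9 proximal TCR genes, the 36 other pathway genes, 20 B cell receptor signalling genes and all 21887 protein-coding genes. The TCR genes stand at 44.4, 66.7, 77.8 and 77.8%, and all protein-coding genes at 4.51, 7.33, 15.5 and 24.6%. The gene lists were chosen with earlier results of these data known.

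A list of peaks measures no expression, so the labelled cell type could not be checked by it. Of the marker genes, 1 of 4 receptor chain genes (Cd247) and 1 of 4 B cell genes had a peak within 50 kb, and none of the helper (Cd4), CD8 (Cd8a, Cd8b1), myeloid (Lyz2, Itgam, Csf1r) or regulatory T cell (Foxp3, Il2ra, Ikzf2) genes did.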

How the data were processed

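Lef1 ChIP-seq peaks came from 1 deposited list, called on the wild-type library with the Lef1-deficient library as control, per the labels. MACS2 2.1.1, Bowtie2 2.3.4.1, FastQC and the build mm10 are listed, with no parameters, per the submitters' processing notes. Scores are the −log10 p of each peak as deposited, per the file headers. The list gives no read counts, so the depth is unknown and a score gives no measure of reproducibility.

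Positions are printed 1-based, assuming that the list follows the BED convention. Gene bodies of 21887 protein-coding genes came from RefSeq (GRCm38.p6), without exons, so positions are inside or outside a gene body. Strands and starts came from RefSeq start windows. Peaks on genes were counted with Python 3.11.15 and pandas 2.3.3, and the counting was tested on simulated positions. All 9 genes are described. The rule named every gene of the other lists with a peak, and any coding gene nearer to a peak than a TCR gene; a few of these are not reported here. The genes, lists and rules were chosen with earlier results of these data known. No chance test was made. Alternatives changed the distance, the assignment, the score limit and the merging of peaks.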

Additional observations from a re-analysis of the deposited data

How the results depend on the processing

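Of the 9 TCR genes, 4 to 7 had a peak under the alternatives: 7 within 100 kb or by the peak centre, 6 within 10 kb or with peaks above the median score, 5 by nearest gene and 4 inside the body. Their peaks numbered 10 in the main count, 9 after merging within 1 kb, 6 by nearest gene and 5 inside the body. Of the 36 other pathway genes, 16 in the main count, 9 had a peak inside the body and 5 had one above the median score. The B cell receptor genes had 0 inside the body, 0 by nearest gene and 5 within 100 kb, against 1. The core was in the windows of 4 genes and the longer form in that of 1. These shifts follow from each rule taking fewer or more peaks or windows. The highest score of a gene was the same in all 35 repeats that left it a peak. That was largely fixed in advance, because the scores are deposited values and Prkcq, Trat1, Lat and Cd28 had only 1 peak each. It therefore gives no measure of robustness. Added after the data were seen were the counts without Pdk1 and with Pdpk1. No paired analysis was possible because there was 1 library of each genotype, which also left no replicate to omit. The unknown depth limits what the lack of a peak can show.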
